A study of Mus musculus with 8 samples.

Results

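The transcripts described here are 9 genes that are markers of B cells and of plasma cells, namely Jchain, Mzb1, Cd79a, Cd79b, Ebf1, Ms4a1, Pax5, Derl3 and Pou2af1. They were taken by symbol from a table of 24426 genes measured by RNA sequencing in cultured mouse Th17 cells, and all 9 were found. The cells, all on the C57BL/6J background, came in 4 groups of 2 libraries: cells transduced with miR-96, cells transduced with a control vector, miR-183C-/- cells (knockout, lacking the miR-183/96/182 cluster of microRNAs) and miR-183C+/+ cells (wild type). Cells had been kept in the Th17(23) culture condition and were taken on day 4 to 5. The protocol names a sort for GFP-positive cells, while the labels call the knockout and wild-type cells not transduced and do not say where their GFP came from. Nothing states that the 2 libraries of a group came from separate mice or cultures. P-values thus measure only the spread between these libraries, and the source of that spread was not tested. Counts of Xist, the X-linked RNA of female cells, were 0 and 1206 in the knockout and 11809 and 1335 with miR-96. They were 9991 and 3932 in wild type and 15555 and 15315 with the control vector.

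B cells carry an antigen receptor whose signalling chains are encoded by Cd79a and Cd79b, and their identity is set by the transcription factors Ebf1 and Pax5. When a B cell becomes a plasma cell it shuts down Pax5 and Ms4a1 and turns on a secretory program, in which Jchain joins antibody units and Mzb1 and Derl3 work in the endoplasmic reticulum. Pou2af1 is a coactivator that binds octamer factors on DNA and is also made by activated T cells. In a sorted culture of T helper cells, transcripts of this kind are a trace against the T cell transcriptome. In bulk RNA, fewer cells of a type and less RNA per cell cannot be told apart.

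Total counts ranged from 7142234 to 12452656 per library, so that 3 counts, the most that a count of 0 allows, correspond to 0.235 to 0.406 CPM. CPM here is the count scaled to its library size, with factors from the trimmed mean of M values (TMM). T cell markers were high in every library: the summed level of 10 T cell identity genes (Cd3d, Cd3e, Cd3g, Cd247, Cd4, Lck, Zap70, Cd5, Cd2 and Thy1) was 3461 and 3623 CPM with miR-96, 3618 and 3415 CPM with the control vector, 4262 and 3973 CPM in the knockout and 3583 and 3732 CPM in wild type. In knockout library 1, 55.6% of detected genes had values that were not whole (over 0.02 from a whole number), against 6.39% to 7.41% in the other 7 libraries, for a reason the sources used here do not give. Intervals given below for ratios of counts are 95% exact conditional binomial intervals and cover counting error only.

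RefSeq promoter windows (GRCm38.p6, the assembly of mm10) of 300 bases, from 250 before to 50 after a start site, were matched for 6 of the 9 genes. There were 7 windows, since Ebf1 had 2; Mzb1, Cd79b and Ms4a1 had none in the table used. The windows of Jchain and Cd79a are shown because these genes passed the test in both comparisons below, and that of Derl3 because it held a searched motif. Capitals mark the letters CAAGGGAAT, the contact sequence of the B cell factor Ebf1 known from the Cd79a promoter itself, and in Derl3 a match on the opposite strand to the endoplasmic reticulum stress element, which is CCAAT and CCACG with any 9 bases between them.

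Jchain promoter, chr5:88527848-88528147, minus strand: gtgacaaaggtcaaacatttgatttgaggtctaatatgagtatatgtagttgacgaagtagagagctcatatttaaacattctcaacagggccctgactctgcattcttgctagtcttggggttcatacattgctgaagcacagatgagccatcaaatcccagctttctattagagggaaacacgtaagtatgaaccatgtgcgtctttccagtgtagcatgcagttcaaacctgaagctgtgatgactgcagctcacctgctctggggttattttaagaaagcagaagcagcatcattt
Cd79a promoter, chr7:24897247-24897546, plus strand: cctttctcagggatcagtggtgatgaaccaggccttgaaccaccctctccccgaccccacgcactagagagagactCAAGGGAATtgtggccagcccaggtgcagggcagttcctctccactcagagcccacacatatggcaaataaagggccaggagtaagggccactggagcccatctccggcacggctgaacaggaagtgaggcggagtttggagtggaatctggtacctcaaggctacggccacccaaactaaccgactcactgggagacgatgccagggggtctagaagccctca
Derl3 promoter, chr10:75893148-75893447, plus strand: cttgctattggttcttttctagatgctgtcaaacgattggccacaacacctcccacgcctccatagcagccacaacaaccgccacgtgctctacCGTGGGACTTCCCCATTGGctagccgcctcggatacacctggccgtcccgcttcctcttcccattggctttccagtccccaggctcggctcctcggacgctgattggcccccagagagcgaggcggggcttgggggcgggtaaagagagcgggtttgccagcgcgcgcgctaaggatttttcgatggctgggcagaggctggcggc

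Each motif was searched on both strands, with overlapping matches allowed, in these 7 windows and in all 32851 promoter windows of the same length. The octamer ATGCAAAT, the sequence that Pou2af1 is recruited to through octamer factors, was in 0 of the 7 windows and in 1.74% of all windows. The Ebf1 palindrome, TCCC and GGGA with any 2 bases between them, was in 0 of the 7 and in 0.904% of all. CAAGGGAAT was in the Cd79a window alone, starting 174 bases before the start site, and in 0.244% of all windows; since the sequence was first described there, that match is no finding. The stress element was in the Derl3 window alone, starting 156 bases before the start site, and in 0.119% of all windows. A match is a description of letters and not a shown binding site.

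Jchain, the joining chain of antibody multimers (chromosome 5, 88519809 to 88527891, minus strand, protein coding), had 26.7 and 31.6 CPM with miR-96, against 0.0784 and 0.193 CPM with the control vector. In the knockout it had 1.22 and 0.834 CPM, against 24.4 and 64.3 CPM in wild type. Both miR-96 libraries and both wild-type libraries were thus high, both control vector libraries and both knockout libraries were low, and neither pair of groups overlapped. Behind these levels stood 291 and 254 counts in miR-96 cells, 1 and 2 in control vector cells, 9 and 7 in the knockout and 200 and 649 in wild type.

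Mzb1, a chaperone that helps antibody folding and secretion in marginal zone B cells and plasma cells (chromosome 18, 35647267 to 35649367, minus strand), had 14.4 and 18.5 CPM with miR-96, against 0.471 and 0.193 CPM with the control vector. It had 0.271 and 2.74 CPM in the knockout, against 15.4 and 37.7 CPM in wild type. The split of libraries was that seen for Jchain, except that the 2 knockout libraries lay apart, with 2 and 23 counts. Mzb1 lies within the annotated span of SPATA24 on the same strand, so reads shared with that gene would make its count uncertain.

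Derl3, which moves misfolded proteins out of the endoplasmic reticulum (chromosome 10, 75893413 to 75895941, plus strand), was low in all 8 libraries. It had 1.92 and 2.74 CPM with miR-96, against 1.80 and 0.967 CPM with the control vector, and 1.08 and 1.19 CPM in the knockout, against 1.83 and 4.36 CPM in wild type. Wild-type library 2 was the highest, while the other 7 libraries lay within 0.967 to 2.74 CPM. Its 2 relatives Derl1 and Derl2, which most cells make, had 95.5 to 132 CPM and 46.3 to 59.1 CPM over the 8 libraries, and neither passed a test in either comparison.

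Cd79a, one signalling chain of the B cell receptor (chromosome 7, 24897381 to 24902197, plus strand), had 7.24 and 7.71 CPM with miR-96, against 0.471 and 0.387 CPM with the control vector. It had 2.03 and 1.31 CPM in the knockout, against 9.75 and 16.6 CPM in wild type. Its partner chain Cd79b (chromosome 11, 106311341 to 106314762, minus strand) had 4.76 and 6.47 CPM with miR-96, against 0.549 and 0.773 CPM with the control vector, and 1.22 and 0.715 CPM in the knockout, against 7.43 and 9.71 CPM in wild type. Both chains were high in the same 4 libraries and low in the same 4 as Jchain. Ms4a1, which encodes the surface protein CD20 (chromosome 19, 11249675 to 11266241, minus strand), followed the same split at a lower level, with 1.83 and 1.37 CPM with miR-96, against 0.0784 and 0.0967 CPM with the control vector, and 0.271 and 0.715 CPM in the knockout, against 1.95 and 4.46 CPM in wild type. In the control vector libraries this rested on 1 count each. Ms4a1 has an antisense gene, 4930526L06Rik, which had 0 counts in every library.

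Of the 3 transcription regulators, Pou2af1 and Ebf1 did not follow that split, and Pax5 was too low to tell. Pou2af1 (chromosome 9, 51213708 to 51240080, plus strand) was the most abundant of the 9 genes by counts, with 78.4 and 46.9 CPM with miR-96, 67.1 and 89.1 CPM with the control vector, 82.6 and 92.2 CPM in the knockout and 74.3 and 88.6 CPM in wild type. Its groups overlapped in both comparisons. Ebf1 (chromosome 11, 44617317 to 45008091, plus strand) had 20.4 and 22.5 CPM with miR-96, 26.3 and 14.7 CPM with the control vector, 9.60 and 8.46 CPM in the knockout and 13.0 and 15.4 CPM in wild type. The highest Ebf1 level of all was in a control vector library, in which Cd79a and Jchain were near 0. Pax5 (chromosome 4, 44524757 to 44710487, minus strand) was nearly absent, with 2 and 4 counts in miR-96 cells, 0 and 1 in control vector cells, 0 and 5 in the knockout and 2 and 8 in wild type, and it was the 1 gene of the 9 that was too low to test. Counts of Ebf1 and Pax5 are uncertain where antisense genes overlap them, as is that of Pou2af1 where Gm47828 lies on the same strand.

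**Figure D1:**
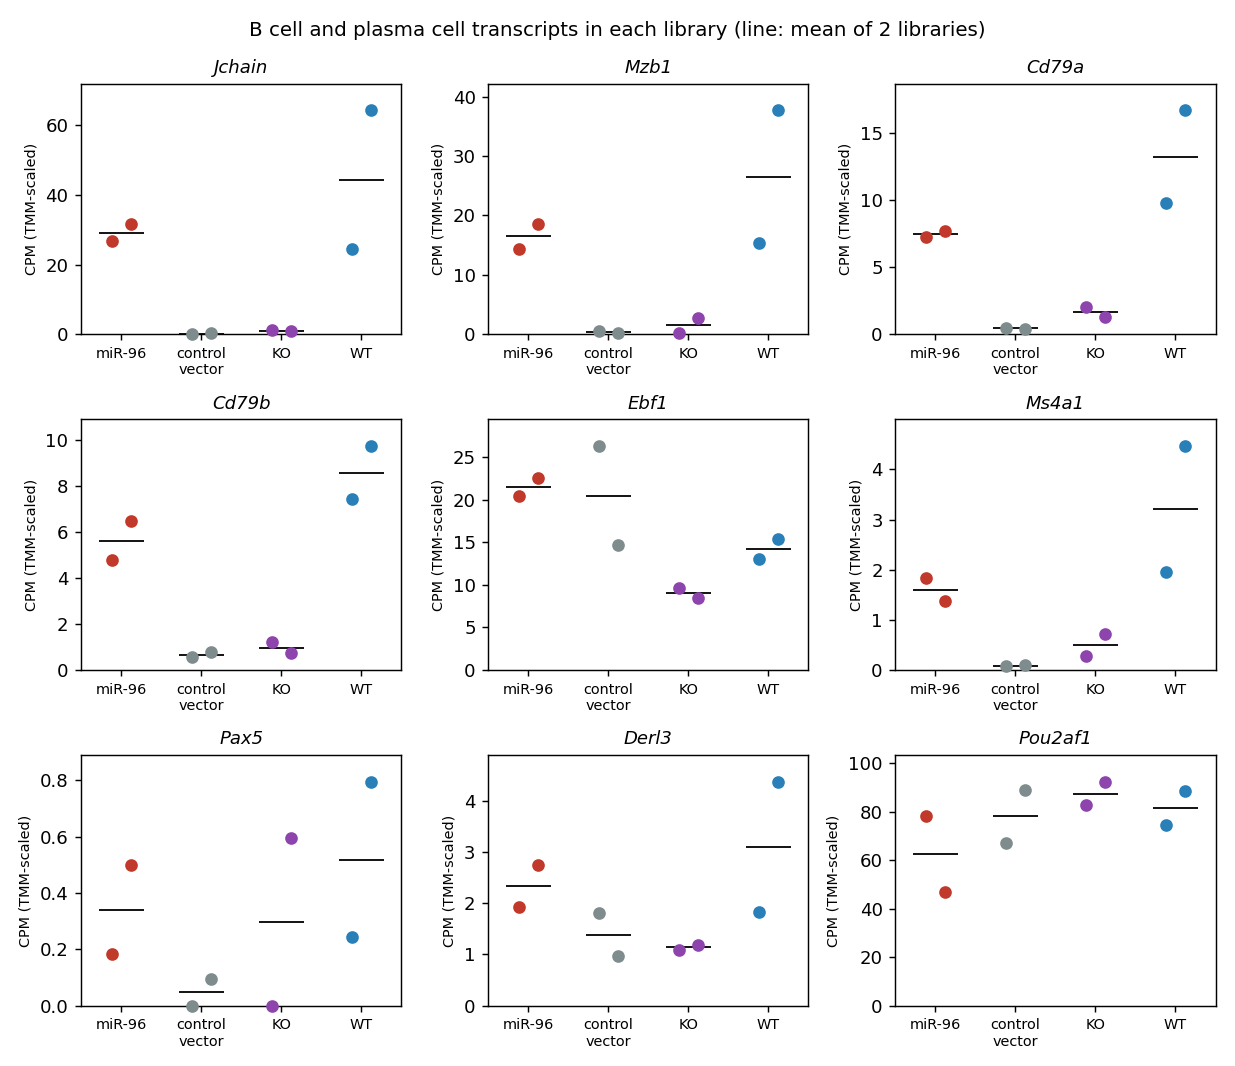
Level of each of the 9 transcripts in every library, in TMM-scaled CPM (vertical axis, linear, a separate scale for each gene); points are libraries and lines are means of 2 libraries. Jchain, Mzb1, Cd79a, Cd79b and Ms4a1 are high in the miR-96 and wild-type libraries and low in the control vector and knockout libraries, while Pou2af1 and Ebf1 are not split in that way.

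Set per length, with the summed exon length of each gene, the wild-type order of mean levels was Pou2af1 with 32.0 CPM per kb, Mzb1 with 21.8, Jchain with 17.6, Cd79a with 9.06, Cd79b with 5.99, Derl3 with 1.55, Ebf1 with 1.46, Ms4a1 with 0.518 and Pax5 with 0.0585 CPM per kb. Over the groups, the mean level of Jchain was 29.1 ± 3.49 CPM with miR-96, 0.136 ± 0.0812 CPM with the control vector, 1.03 ± 0.271 CPM in the knockout and 44.3 ± 28.2 CPM in wild type (SD, n = 2 each). Mzb1, Cd79a, Cd79b and Ms4a1 had the same order of means, wild type above miR-96 above knockout above control vector. The libraries of wild type and miR-96 overlapped for Jchain and Mzb1 and did not for Cd79a, Cd79b and Ms4a1. Those of the knockout and the control vector overlapped for Mzb1 and Cd79b and did not for Jchain, Cd79a and Ms4a1. Wild-type and knockout cells were not transduced and the other groups were, so these neighbours in the order also differ in handling, and they were not tested against each other. The share of all genes without such overlap was not taken for these neighbours, so the overlaps only describe the transcripts.

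Added miR-96 was compared with the control vector to ask what it changes in Th17 cells. Jchain and Cd79a rose with miR-96, and the other 6 transcripts that could be tested did not pass the test. Jchain was higher by a log2 fold change of 7.67 (SE 0.68), a ratio of 221 in counts (95% interval 75.3 to 1076), with an edgeR adjusted p of 0.00829. Cd79a was higher by 4.07 (SE 0.47), a ratio of 17.2 (9.07 to 36.6), with an edgeR adjusted p of 0.0149. Over all 11851 genes tested, 0.11% were called higher in this comparison, against 2 of the 8 transcripts here.

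Mzb1, at a log2 fold change of 5.53 (SE 0.83) and a ratio of 46.6 (23.4 to 109), and Cd79b, at 3.07 (SE 0.47) and a ratio of 8.45 (4.89 to 15.6), both had an edgeR adjusted p of 0.0772. Ms4a1 had 31 counts in miR-96 cells against 2 in control vector cells, a ratio of 18.9 (4.80 to 163), and an edgeR adjusted p of 0.314. Derl3 had a log2 fold change of 0.72 (SE 0.59, adjusted p 0.773 by edgeR), Ebf1 of 0.06 (SE 0.27, 0.967) and Pou2af1 of -0.31 (SE 0.24, 0.757). The sign for Ebf1 turned without miR-96 library 2 or control vector library 2, and that for Pou2af1 without miR-96 library 2. Pax5 had 6 counts in miR-96 cells against 1 in control vector cells, a ratio of 7.31 with an interval of 0.887 to 336, which includes no difference.

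The median log2 fold change was 3.55 over the 8 tested transcripts and 0.01 over all genes tested. In 6 of the 8 both miR-96 libraries lay above both control vector libraries, as did those of 18.3% of all genes tested. Jchain, Mzb1, Cd79b and Ms4a1 reached the filter on low counts in both libraries of the miR-96 and wild-type groups alone, so genes like them had to differ between groups in order to be tested, and these counts and medians describe the transcripts without supporting a difference. Without control vector library 1 no transcript was called, and without control vector library 2 none was either. Cd79a was also not called with only the 4 libraries of the comparison (adjusted p = 0.0833). Mzb1 was called without miR-96 library 1 (edgeR adjusted p = 0.0401), without knockout library 1 (0.0298) and without knockout library 2 (0.0296), and Cd79b without miR-96 library 1 (0.0401). The log2 fold change of Jchain was 8.32 without control vector library 2.

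Knockout cells were compared with wild-type cells to ask what loss of the cluster changes. Jchain, Mzb1, Cd79a, Cd79b and Ms4a1 fell in the knockout, and Ebf1, Derl3 and Pou2af1 did not pass the test. Jchain fell by 5.43 on the log2 scale (SE 0.54), to 16 counts in the knockout against 849 in wild type, with an edgeR adjusted p of 0.0211. Mzb1 fell by 4.09 (SE 0.71, edgeR adjusted p = 0.0248), Cd79b fell by 3.15 (SE 0.46, 0.0246) and Cd79a fell by 2.99 (SE 0.41, 0.0246). Ms4a1 fell by 2.66 (SE 0.71), with 8 counts in the knockout against 61 in wild type and an edgeR adjusted p of 0.0427. Over all genes tested, 6.4% were called lower in this comparison, against 5 of the 8 transcripts here. The filter limits these counts too, since 4 of the 5 were testable through the wild-type and miR-96 libraries alone.

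The counts in wild type were 45.8 times those in the knockout for Jchain (interval 28 to 80.5), 17.5 times for Mzb1 (11.7 to 27.2), 9.15 times for Cd79b (5.38 to 16.7), 8.23 times for Cd79a (5.48 to 12.9) and 6.58 times for Ms4a1 (3.14 to 15.9), after scaling for library size. Derl3 had a log2 fold change of -1.44 (SE 0.62, adjusted p 0.136 by edgeR), Ebf1 of -0.66 (SE 0.29, 0.149) and Pou2af1 of 0.10 (SE 0.24, 0.796), the last of which changed sign without wild-type library 1. Pax5 had 5 counts in the knockout and 10 in wild type. The median log2 fold change was -2.82 over the 8 tested transcripts and -0.01 over all genes tested. In 7 of the 8 both knockout libraries lay below both wild-type libraries, as did those of 34.9% of all genes tested.

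Leaving out knockout library 1 ended all 5 calls. Without wild-type library 2 the call of Jchain alone was made, with an adjusted p of 0.192 for Mzb1, Cd79a and Cd79b and 0.289 for Ms4a1. Without wild-type library 1 Jchain and Cd79a were called, and Mzb1 (0.0697), Cd79b (0.0944) and Ms4a1 (0.124) were not. Ms4a1 lost its call without any 1 of the 8 libraries, where its adjusted p was 0.0522 to 0.297, and in DESeq2, where it was 0.0546. The fold change of Mzb1 moved most, to -6.56 on the log2 scale without knockout library 2, -3.25 without knockout library 1 and -3.31 without wild-type library 2. That of Jchain was -4.57 without wild-type library 2, and that of Ms4a1 was -1.94 without it and -3.52 without knockout library 2. Of all genes tested, 13% were called in this comparison in either direction.

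The difference between the 2 comparisons was tested in the same model, as the knockout contrast minus the miR-96 contrast. For a transcript that rose with miR-96 and fell in the knockout, the sizes of both changes add up in it. It passed for Jchain (log2 -13.10, SE 0.87, edgeR adjusted p = 0.00133), Cd79a (-7.06, SE 0.62, 0.00426), Cd79b (-6.22, SE 0.66, 0.00582), Mzb1 (-9.61, SE 1.10, 0.00915) and Ms4a1 (-6.68, SE 1.13, 0.0182). Of all genes tested, 4.58% were called lower in this difference, and the limit from the filter holds here as well. It did not pass for Derl3 (-2.17, SE 0.86, edgeR adjusted p = 0.130), Ebf1 (-0.72, SE 0.40, 0.264) or Pou2af1 (0.41, SE 0.34, 0.454). Ms4a1 lost this call without control vector library 1 (adjusted p = 0.0590), knockout library 1 (0.0763) or wild-type library 2 (0.109). Over the libraries left out in turn, the difference ran from -13.75 to -12.23 for Jchain, with its ends without control vector library 2 and wild-type library 2, and from -12.08 to -8.78 for Mzb1, with its ends without knockout library 2 and knockout library 1. For Ms4a1 its ends were at the same libraries as in the knockout comparison, at -7.54 without knockout library 2 and -5.96 without wild-type library 2.

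**Figure D2:**
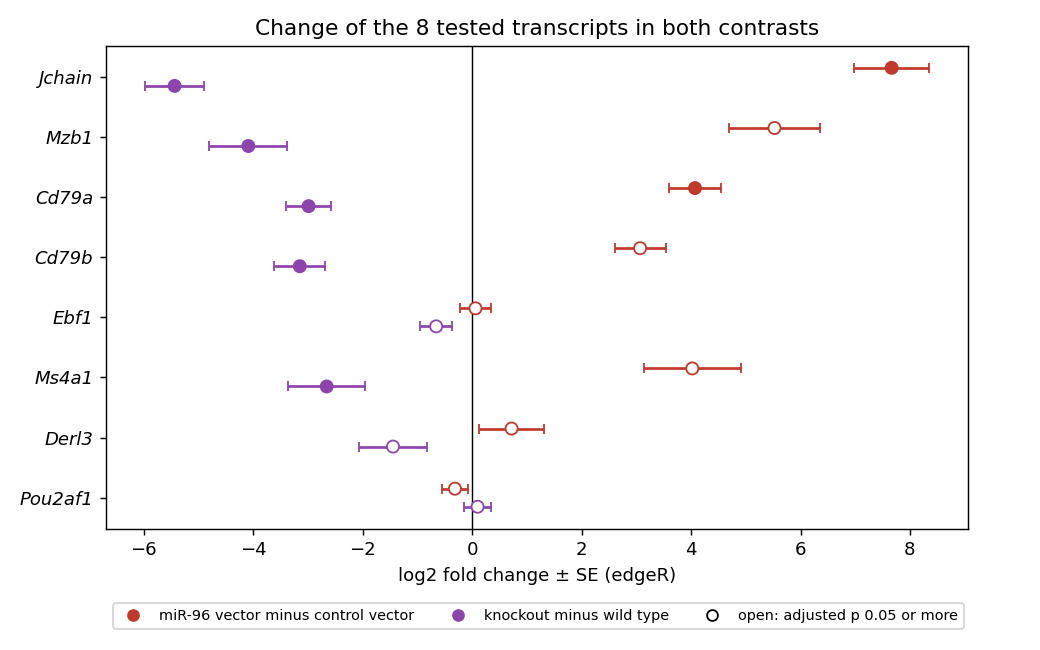
Log2 fold change with its SE (horizontal axis) of the 8 tested transcripts, for miR-96 against control vector (red) and knockout against wild type (purple); filled points have an edgeR adjusted p under 0.05 and open points do not. Jchain is at 7.67 with miR-96 and at -5.43 in the knockout, whereas Ebf1 is at 0.06 and -0.66 and Pou2af1 at -0.31 and 0.10.

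The 5 transcripts that split the libraries, a set chosen after their values were seen, were next summed. They came to 54.9 and 65.7 CPM with miR-96, 1.65 and 1.64 CPM with the control vector, 5.00 and 6.31 CPM in the knockout and 58.9 and 133 CPM in wild type. Wild-type library 2 was the highest of all, and miR-96 libraries 1 and 2 stood at 0.413 and 0.495 times wild-type library 2. The sum was 0.0124% of the counts of wild-type library 2 before TMM scaling, and 0.000166% to 0.000169% of those of the control vector libraries.

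In the miR-96 and wild-type libraries the transcripts stood in similar proportions. There were 0.540 and 0.587 Mzb1 counts per Jchain count with miR-96, and 0.630 and 0.586 in wild type, with intervals that all overlapped (lowest bound 0.441, highest 0.791). Cd79a counts per Jchain count were 0.271 and 0.244 with miR-96 and 0.400 and 0.259 in wild type, and the interval of wild-type library 1, 0.305 to 0.521, overlapped the upper end of the others. Cd79b counts per Cd79a count were 0.658 and 0.839 with miR-96 and 0.763 and 0.583 in wild type.

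In the knockout and control vector libraries Jchain took a smaller share, on few counts. Jchain made up 24.3% and 13.2% of the 5 transcripts' counts in the knockout and 4.76% and 11.8% with the control vector, against 48.6% and 48.1% with miR-96 and 41.4% and 48.4% in wild type. In the knockout there were 1.67 and 1.57 Cd79a counts per Jchain count, with intervals of 0.683 to 4.32 and 0.556 to 4.78 that lie above those of the miR-96 and wild-type libraries. Mzb1 counts per Jchain count were 0.222 (0.0234 to 1.07) in knockout library 1 and 3.29 (1.36 to 9.07) in knockout library 2, so these 2 libraries of 1 group did not overlap. With 21 and 17 counts for the 5 transcripts together, the control vector libraries allow no finer comparison.

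**Figure D3:**
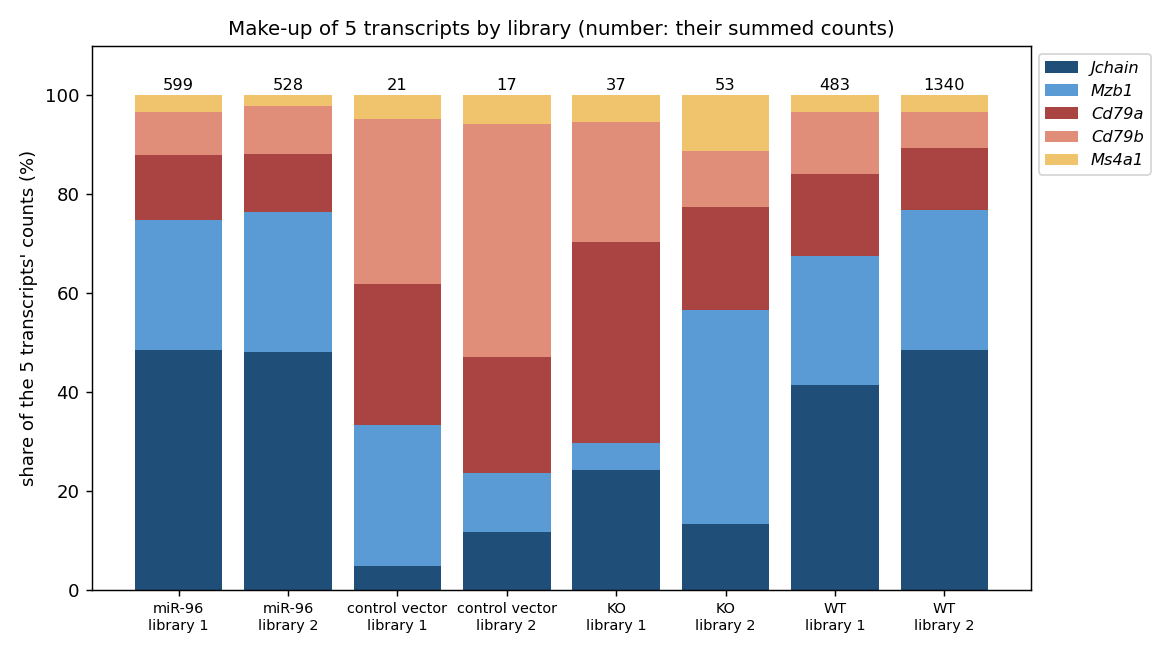
Share of each of 5 transcripts in their summed counts, in percent (vertical axis), for every library (horizontal axis); the number above a bar is the summed count. The miR-96 and wild-type bars, with 483 to 1340 counts, have a similar make-up, and the control vector and knockout bars, with 17 to 53 counts, hold a smaller share of Jchain.

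Further B cell genes were looked at in a list of 17 (surface molecules, receptor signalling proteins and transcription factors), of which 12 were abundant enough to test. With miR-96, 0 of the 12 were called by edgeR against the control vector. An unadjusted p under 0.05 was reached by 5, all higher. Of all 11851 genes tested by edgeR, 1031 reached it with miR-96 and 4082 in the knockout, in either direction. These totals also stand behind the unadjusted counts of the lists below. DESeq2 called 1 of the list. Its share over all genes is not given here or for the lists below, so its counts only describe the lists. In the knockout 2 of the 12 fell against wild type, Syk and Vpreb3, and 0 rose, where 6.4% of all genes tested were called lower. Of the 12, 8 had a negative log2 fold change in the knockout and 4 a positive one. Syk, a kinase that relays the B cell receptor signal and is also made by other blood cells, had 8.52 and 10.6 CPM with miR-96, against 1.96 and 3.38 CPM with the control vector, and 2.16 and 3.34 CPM in the knockout, against 11.3 and 21.0 CPM in wild type (in the knockout, log2 fold change -2.55, SE 0.43, adjusted p 0.0246 by edgeR). Vpreb3, a protein of the B cell receptor assembly path, had 17 counts in miR-96 cells against 0 in control vector cells, and 2 in the knockout against 41 in wild type (log2 fold change -3.99, SE 0.99, adjusted p 0.0407 by edgeR). Vpreb3 passed the filter through the wild-type libraries alone, so it had to differ between groups in order to be tested.

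Blnk, the adaptor that follows Syk in the pathway, had 31 counts in miR-96 cells against 2 in control vector cells, and 5 in the knockout against 55 in wild type (edgeR adjusted p = 0.386 and 0.0588). For Blnk the difference between the comparisons passed the test (edgeR adjusted p = 0.0267). Blnk passed the filter through the miR-96 and wild-type libraries alone, so the limit from the filter holds for it too. Btk, a kinase of the same pathway, lay the other way in the knockout, at 7.98 and 5.00 CPM against 2.44 and 2.87 CPM in wild type. This did not pass the test (log2 fold change 1.28, SE 0.49, adjusted p 0.102 by edgeR). Tnfrsf13b, the other abundant member, ran opposite to Jchain in both comparisons and was not called. It had 6.50 and 6.22 CPM with miR-96, against 9.57 and 8.80 CPM with the control vector (log2 fold change -0.53, SE 0.25). In the knockout it had 8.93 and 8.58 CPM, against 7.31 and 6.64 CPM in wild type (log2 fold change 0.33, SE 0.26).

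The list of 17 further plasma cell genes was mostly made by all libraries. Of 16 tested, 0 were called with miR-96 by edgeR (2 had an unadjusted p under 0.05, and DESeq2 called 1), and 1 rose and 1 fell in the knockout (1 and 2 by DESeq2). With 6.4% of all genes tested called lower and 6.63% called higher in the knockout, 1 gene of 16 in each direction is near the background. The gene that fell was Prdm1, a repressor that drives plasma cell differentiation and is also active in T cells, with 13.3 and 16.2 CPM with miR-96, against 1.18 and 2.71 CPM with the control vector, and 2.84 and 1.79 CPM in the knockout, against 13.8 and 32.6 CPM in wild type (in the knockout, log2 fold change -3.33, SE 0.52, adjusted p 0.0246 by edgeR). Prdm1 thus split the libraries as Jchain did. The gene that rose in the knockout was Sec11c, a subunit of the signal peptidase, at 94.7 and 72.3 CPM against 38.3 and 42.8 CPM in wild type (log2 fold change 1.04, SE 0.26, adjusted p 0.0378 by edgeR). The most abundant members, Irf4, Hsp90b1 and Edem1, ran at 819 to 1220, 411 to 778 and 178 to 249 CPM and were not called. Tnfrsf17, a receptor of mature plasma cells, had 0 counts in all 8 libraries. Immunoglobulin constant region genes such as Ighm and Igkc were not analysed here.

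Of Pou2af1 and the factors that bring it to DNA, 1 of 3 was called lower in the knockout, against 6.4% of all genes tested. This was Pou2f2, at 29.2 and 37.3 CPM against 56.8 and 60.8 CPM in wild type (log2 fold change -0.82, SE 0.21, adjusted p 0.0392 by edgeR). Pou2f2 did not pass the test of the difference between the comparisons (edgeR adjusted p = 0.0590). Pou2f1 had 30.0 to 43.3 CPM over the 8 libraries and was not called in either comparison.

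Markers of other cells were set beside these values. Of 11 genes known from plasmacytoid dendritic cells, which also make Jchain and Mzb1, 6 were tested; Siglech, their defining surface marker, had at most 1 count in a library, and Klk1 and Cd300c had 0. The list summed to 198 and 224 CPM with miR-96, 159 and 161 CPM with the control vector, 148 and 153 CPM in the knockout and 210 and 277 CPM in wild type, and 2 of the 6, Irf8 and Runx2, which T cells also make, fell in the knockout, against 6.4% of all genes tested. Bst2 and Pacsin1 of this list had positive log2 fold changes there, 0.28 and 0.11, and were not called. Of 7 MHC class II genes, which B cells and myeloid cells share, 6 were tested. In the knockout 1 of the 6 was called lower, against 6.4% of all genes tested, and 0 were called higher. Of the 6, 3 had a positive log2 fold change there, among them H2-Ab1 at 0.55. The gene that fell was H2-Aa, at 2.30 and 2.86 CPM against 8.16 and 19.9 CPM in wild type (log2 fold change -2.44, SE 0.46, adjusted p 0.0258 by edgeR). H2-Aa had 7.70 and 7.96 CPM with miR-96, against 1.10 and 0.773 CPM with the control vector. H2-Eb1 had 16.1 and 14.3 CPM with miR-96, against 4.94 and 1.35 CPM with the control vector, and 6.22 and 4.05 CPM in the knockout, against 11.2 and 25.6 CPM in wild type, and passed only the test of the difference between the comparisons (adjusted p 0.0239 by edgeR). The sum of the class II list, most of it from Cd74 and H2-Ab1, overlapped between the groups in both comparisons, at 142 and 122 CPM with miR-96, 130 and 73.5 CPM with the control vector, 125 and 93.3 CPM in the knockout and 95.8 and 166 CPM in wild type. The part of these cells in the results was not tested.

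The 8 myeloid markers summed to 14.4 and 25.7 CPM with miR-96, 18.7 and 6.77 CPM with the control vector, 16.0 and 7.62 CPM in the knockout and 6.82 and 8.72 CPM in wild type, with S100a8 and S100a9 at 0 counts throughout. This list overlapped in both comparisons and had 0 of 5 tested members called by edgeR in either (1 with an unadjusted p under 0.05 with miR-96 and 0 in the knockout, and 0 by DESeq2 in both). The 8 CD8 T and NK markers summed to 57.3 and 57.2 CPM with miR-96, 23.3 and 18.0 CPM with the control vector, 42.3 and 30.1 CPM in the knockout and 45.2 and 89.4 CPM in wild type, while the natural killer cell genes Ncr1 and Klrb1c had 0 counts throughout. In the knockout 2 of the 6 tested members fell, against 6.4% of all genes tested. Gzma, a granzyme gene, fell (0 and 0.715 CPM against 11 and 29.7 CPM in wild type, edgeR adjusted p = 0.0246), as did the perforin gene Prf1 (4.60 and 3.22 CPM against 9.02 and 19.4 CPM, 0.0419). Nkg7 and Cd8b1 had positive log2 fold changes there, 0.24 and 0.23, and were not called. Gzma passed the filter through the miR-96 and wild-type libraries alone, so the limit from the filter holds for its call. The 6 erythroid genes were too low to test, at no more than 1.78 CPM in sum.

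Of 6 Th17 genes, 3 fell in the knockout (Il17a, Il17f and Il1r1), against 6.4% of all genes tested. With miR-96, 0 of the 6 were called by edgeR. An unadjusted p under 0.05 was reached by 5, all higher, against 1031 of all 11851 genes tested, in either direction. DESeq2 called 3, all higher, without a share over all genes to set beside them. Of the 10 T cell identity genes, Cd3e rose and Thy1 fell in the knockout. With 6.63% of all genes tested called higher there and 6.4% called lower, 1 gene of 10 in each direction is near the background. With miR-96, 0 of the 10 were called by edgeR (1 at an unadjusted p under 0.05) or by DESeq2. Il17a, the signature cytokine, had 190 and 330 CPM with miR-96, against 122 and 90.9 CPM with the control vector, and 14.5 and 24.4 CPM in the knockout, against 165 and 261 CPM in wild type. Of 5 sex-linked genes, 3 were called higher with miR-96, against 0.11% of all genes tested, and 0 were called in the knockout by edgeR (1 at an unadjusted p under 0.05, and 0 by DESeq2). The Y-linked gene Ddx3y had 45.5 and 140 CPM with miR-96, against 0.941 and 0 CPM with the control vector, but 68.6 and 98.9 CPM in the knockout, against 50.9 and 118 CPM in wild type. Xist, the X-linked RNA of female cells, had 1082 and 166 CPM with miR-96, against 1220 and 1480 CPM with the control vector, and 0 and 144 CPM in the knockout, against 1217 and 390 CPM in wild type (in the knockout, log2 fold change -3.48, SE 1.49, adjusted p 0.137 by edgeR). Xist did not overlap between the groups of either comparison and varied widely between libraries of 1 group. The Y-linked genes Uty and Kdm5d had 0 and 0 and 1 and 0 counts with the control vector, against 120 and 447 and 173 and 436 with miR-96. The miR-96 and control vector groups thus also differed in Y-linked RNA. In that comparison, where Jchain and Cd79a were called, the vector and the sex-linked difference cannot be told apart. The part of sex-linked differences in the results was not tested.

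**Figure D4:**
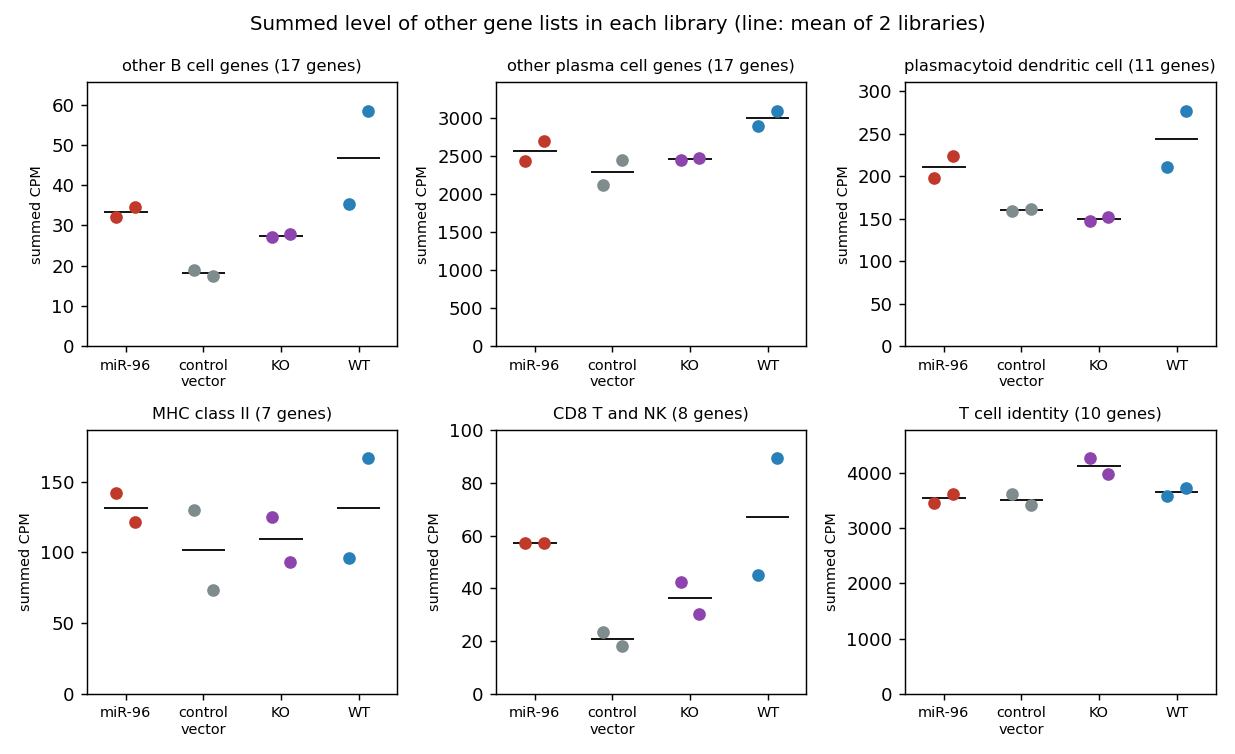
Summed level in TMM-scaled CPM (vertical axes, separate linear scales) of 6 other gene lists in every library; points are libraries and lines are means of 2 libraries. The further B cell genes range from 17.5 CPM in a control vector library to 58.6 CPM in wild-type library 2, while the T cell identity genes stay between 3415 and 4262 CPM.

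The genes most like Jchain and Cd79a over the 8 libraries were found by Pearson's r of log2 CPM among 11843 other tested genes. As the libraries of each group share a culture type and a label, and 4 libraries were high and 4 low, r here is a description of likeness only. For Jchain they were the cytokine gene Il10 (r = 0.98), Fam129c (0.98), the cytokine gene Il5 (0.98), Prdm1 (0.97) and the granzyme gene Gzmd (0.97). Il10 had 50.3 and 58.7 CPM with miR-96, against 0.0784 and 0.773 CPM with the control vector, and 0.676 and 2.26 CPM in the knockout, against 54.0 and 134 CPM in wild type. Gzmd had 15 counts in each miR-96 library, 0 in the control vector and knockout libraries, and 11 and 30 in wild type. For Cd79a they were H2-Aa (0.98), the transcription factor gene Mef2c (0.98), Tnfrsf14 (0.98), Vpreb3 (0.97) and Prf1 (0.96). Mef2c had 1.65 and 1.37 CPM with miR-96, against 0.392 and 0.290 CPM with the control vector, and 1.08 and 0.715 CPM in the knockout, against 2.07 and 3.17 CPM in wild type. Genes of B cells and genes of T cells thus stood side by side in both lists.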

How the data were processed

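The deposited table holds estimated counts per gene, which the authors did not normalize, judging from the values; columns were matched to samples by the letter in each sample's description. Per the submitters' processing notes, the build named is mm10 and the tools named are edgeR, Partek, STAR 2.3.0 and bcl2fastq 2.16.0.10; what each did is not stated. The annotation and strand setting used in counting are not given in the sources used here. Counts were rounded. Of 24453 lines, 27 with a number in place of a symbol were left out (at most 0.243% of a library). Positions, overlaps and exon lengths come from GENCODE M21 (GRCm38).

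The test was edgeR 4.0.16 (R 4.3.3), quasi-likelihood F test on all 8 libraries, group term, TMM factors, filterByExpr (minimum count 10, total 15), 11851 genes, 4 residual degrees of freedom and Benjamini-Hochberg adjustment over all tested genes, with calls at an adjusted p under 0.05. SE was taken from the fold change and F. Likeness used a prior count of 2. The fitting step was tested on simulated data with a common dispersion for all genes and changes of 2, 4 or 8 fold. That test does not cover spreads that differ by gene or changes as large as that of Jchain. The transcripts and gene lists were chosen with earlier results of these data known; of each further list, the 3 most abundant members and any called member were to be named, and others named, genes at 0 included, were chosen after their values were seen. Alternatives were DESeq2 1.42.0, upper-quartile or RLE factors, leaving the filter out or setting it at 1 CPM in 2 libraries, fits of 4 libraries, the duplicate number as a block, and each library left out. Values of 1 gene of the further lists are not reported here.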

Additional observations from a re-analysis of the deposited data

Results flagged for a closer look

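For 5 transcripts the effects of losing the cluster and of adding miR-96 differed by a test of the difference itself (edgeR, knockout contrast minus miR-96 contrast). The 2 effects were opposite in sign, so their sizes add up in this difference. A call here thus does not mean that the 2 comparisons disagree. The difference was -13.10 on the log2 scale for Jchain (SE 0.87, edgeR adjusted p = 0.00133), -9.61 for Mzb1 (SE 1.10, 0.00915), -7.06 for Cd79a (SE 0.62, 0.00426), -6.22 for Cd79b (SE 0.66, 0.00582) and -6.68 for Ms4a1 (SE 1.13, 0.0182). All 5 were higher in both miR-96 libraries than in both control vector libraries, and lower in both knockout libraries than in both wild-type libraries. Of all genes tested, 4.58% were called lower in this difference. Jchain, Mzb1, Cd79b and Ms4a1 passed the filter on low counts through the miR-96 and wild-type libraries alone, so genes like them had to differ in order to be tested. The fitted values for Jchain and Ms4a1 rest on 3 and 2 counts in the control vector group.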

How the results depend on the processing

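With miR-96, 2 transcripts were called as reported, 5 without a filter on low counts and 4 by DESeq2. In the knockout 5 were called as reported and 4 by DESeq2. The count ran from 0 to 4 with miR-96, from 0 to 4 in the knockout and from 4 to 5 for the difference when each library was left out in turn. RLE or upper-quartile factors, the filter at 1 CPM and the fit of 4 libraries gave the reported numbers, though with miR-96 the 4-library fit called Mzb1 in place of Cd79a. Over all genes, calls with miR-96 ran from 0 to 466 (13 as reported), in the knockout from 0 to 3151 (1544) and for the difference from 23 to 2534 (1070). The duplicate number is not said to pair the libraries. Same-numbered libraries deviated together with r from -0.22 to 0.34 over 6 pairs of groups. With 2 libraries a group this gives a single r for each pair, which cannot decide whether the libraries are paired. With the number as a replicate block the transcripts called were 3 with miR-96 (Mzb1 added), 4 in the knockout (without Ms4a1, adjusted p = 0.0507) and 5 for the difference. A crossed replicate block, added after seeing the data, gave 3 with miR-96.

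Of the fold changes of single transcripts, 3 turned sign under an alternative: with miR-96, Ebf1 was at -0.0087 without miR-96 library 2 and at -0.28 without control vector library 2 (range over left-out libraries -0.28 to 0.52), and Pou2af1 at 0.0035 without miR-96 library 2 (range -0.73 to 0.0035). In the knockout, Pou2af1 was at -0.025 without wild-type library 1 (range -0.025 to 0.23). None of these was called. The cause was not tested. The 1 motif match in Derl3 is on the opposite strand, so a search of the gene strand alone gives 0. With at most 21 counts for 5 transcripts in a control vector library, the proportions of the transcripts there are known only roughly.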
